A study of Vitis riparia with 12 samples.

Results

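The 8 genes described here were listed for the synthesis and breakdown of abscisic acid in shoot tips of Vitis riparia, a grapevine, out of 29970 gene identifiers measured. The list holds 4 identifiers as NCED dioxygenases and 4 as CYP707A hydroxylases, and all 8 were found in the files by identifier. The files carry no gene names, so the class of each identifier is that of the list and was not tested. Vines of genotype PI588259, all 6 years old and in pots, were kept at a photoperiod of 15 h (long, LD) or shifted to one of 13 h (short, SD). Tips of 4 nodes were cut after 7 or 21 days of differing photoperiod, so that LD7, LD21, SD7 and SD21 each hold 3 libraries. Each library pooled 5 vines, all of 1 genotype, and a tip of 4 nodes mixes the apex with young stem and leaf tissue. Values are FPKM, fragments per length of transcript and per total of mapped reads, so the levels of different genes can be set side by side per length.

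Abscisic acid is a plant hormone made from carotenoids. NCED enzymes cleave epoxycarotenoids in the plastid to the precursor xanthoxin, which is widely regarded as the committed and often limiting step of synthesis, and CYP707A enzymes, cytochrome P450 hydroxylases, start the main route of breakdown. The amount of the hormone thus depends on both classes, and in woody plants it has long been studied in growth cessation, bud dormancy and drought. In Arabidopsis the NCED name has also been given to a dioxygenase of the CCD4 type, which cleaves other carotenoids. Transcript levels report neither enzyme activity nor hormone content, which were not measured here.

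Library-wide differences touch every value below. Relative depth, read from the whole-read steps of rare genes, ran from 1.00 to 1.58 between libraries, and absolute depth is unknown. The SD21 libraries held 16.2% to 21.3% of their FPKM in their 10 most abundant genes, against 4.81% to 9.94% in the other 9 libraries, and in SD21 against LD21 the 21848 tested genes had a median log2 fold change of -0.30. Quantile normalization moved that median to 0.02 and median-ratio scaling to -0.02, and they turned the split of calls from 5376 higher and 9545 lower into 7339 and 7099 or 7260 and 7398. Fewer cells of a type and less RNA per cell cannot be told apart in such tissue. All 8 genes passed the filter of 1 FPKM or more in at least 3 libraries, but VIT_02s0087g00930 passed only through its 3 SD21 libraries.

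After 21 days of short photoperiod, all 4 genes listed as NCED and 2 of the 4 listed as CYP707A rose against LD21, where 68.3% of all tested genes were called and 24.6% were called higher. At day 7 none of the 8 was called, where 0.833% of all tested genes were. The largest rises from LD21 to SD21 were those of VIT_02s0087g00910, listed as an NCED, from 7.19 ± 1.39 to 258 ± 39.5 FPKM (SD, n = 3), and of the CYP707A gene VIT_02s0087g00710, from 1.05 ± 0.43 to 30.7 ± 7.10 FPKM. Whether VIT_02s0087g00910 and VIT_02s0087g00930 are abscisic acid NCED genes or of the CCD4 type is uncertain. The other 2 CYP707A genes, VIT_18s0001g10500 and VIT_06s0004g05050, were not called in SD21 against LD21. Calls are adjusted p under 0.05 in limma, fitted over all tested genes on log2(FPKM + 1).

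**Figure D1:**
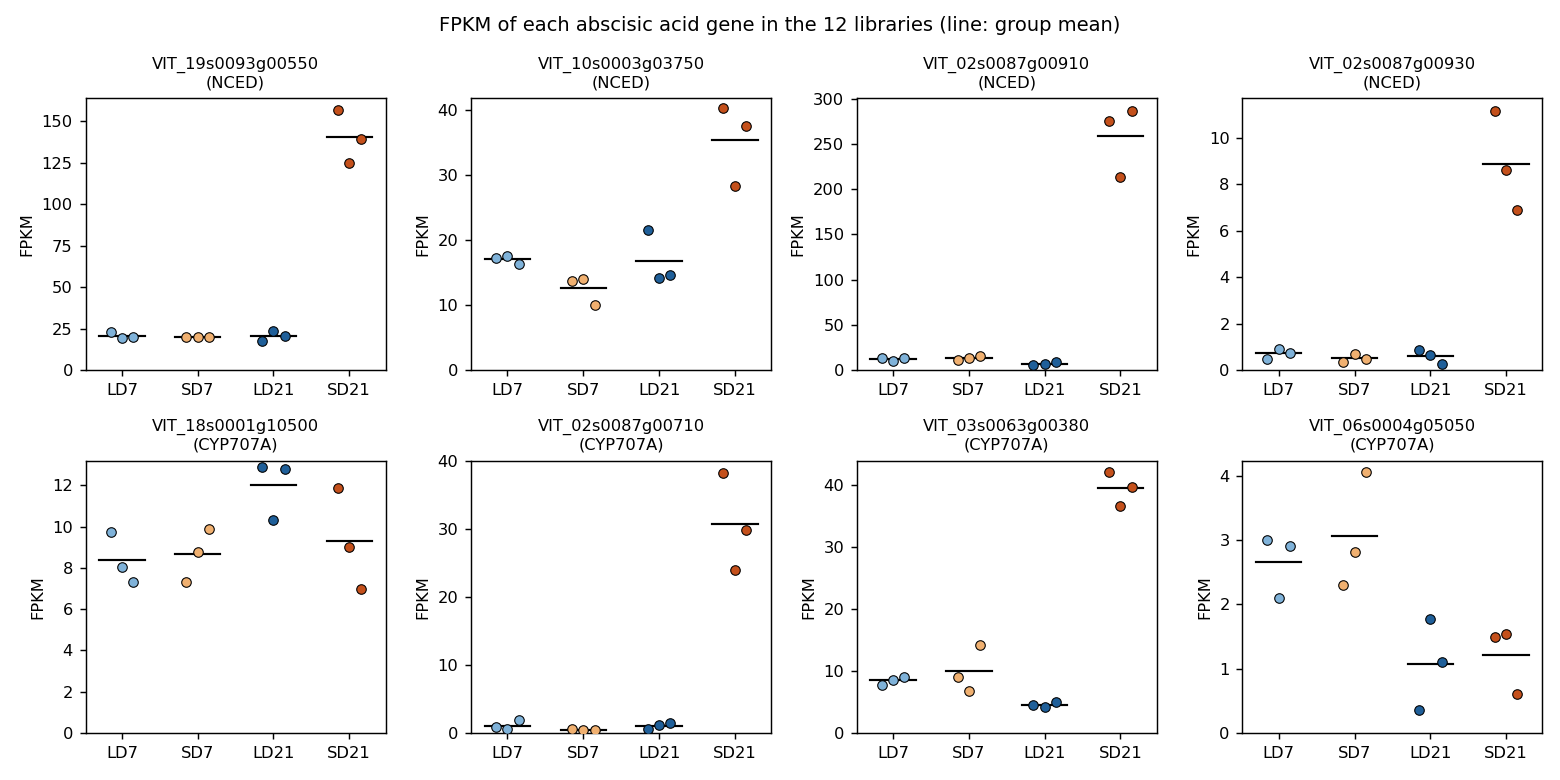
FPKM (vertical axes, each from 0) of the 8 genes in the 12 libraries, with LD7, SD7, LD21 and SD21 along each horizontal axis, points for libraries and lines for group means. In 6 panels the SD21 points lie above all other points, while VIT_18s0001g10500 and VIT_06s0004g05050 show no such separation.

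Among the NCED genes, VIT_19s0093g00550 (chromosome 19, 17645347 to 17647649 in the coordinates of the files) was the most abundant of all 8 genes in LD7, SD7 and LD21. Its FPKM was 23.1, 19.3 and 19.9 in the LD7 libraries, 20.3, 20.0 and 20.2 in SD7, 17.7, 23.6 and 20.5 in LD21, and 157, 125 and 140 in SD21. The 9 libraries outside SD21 kept to a narrow band and every SD21 library lay far above it. In SD21 against LD21 its log2 fold change was 2.71 ± 0.13 (SE, limma adjusted p = 3.7e-08), and the mean FPKM was 6.82 times as high. Its level exceeded that of 71.4% to 77.4% of all listed genes in the libraries outside SD21 and of 95.6% to 96.9% in the SD21 libraries.

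VIT_10s0003g03750 (chromosome 10, 6374431 to 6376728), also listed as an NCED, had the smallest rise among the 6 genes called. It stood at 17.3, 17.6 and 16.3 FPKM in LD7, at 13.8, 14.0 and 10.0 in SD7, at 21.6, 14.1 and 14.6 in LD21, and at 40.4, 28.4 and 37.6 in SD21. The SD21 libraries were again above all others, and the SD7 libraries were below those of LD7 without overlap. In SD21 against LD21 the log2 fold change was 1.05 ± 0.19 (SE, limma adjusted p = 0.00037). The day 7 difference was -0.42 with a 95% interval from -0.83 to -0.02 and was not called (unadjusted p = 0.043, limma adjusted p = 0.32).

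VIT_02s0087g00910 (chromosome 2, 18560695 to 18562591) showed the largest change of the list in SD21 against LD21. In SD21 against SD7 its log2 fold change of 4.16 was below the 4.44 of VIT_02s0087g00710. Its FPKM was 13.3, 10.5 and 13.0 in LD7, 11.5, 13.5 and 15.5 in SD7, 6.24, 6.54 and 8.79 in LD21, and 275, 213 and 287 in SD21. By mean FPKM it ranked behind VIT_19s0093g00550 and VIT_10s0003g03750 in LD7 and LD21 and ahead of both in SD21, where it exceeded 97.7% to 98.6% of all listed genes. The log2 fold change of SD21 against LD21 was 4.99 ± 0.17 (SE, limma adjusted p = 1.7e-08), and 99.8% of tested genes had a lower one. The mean FPKM was 35.9 times as high in SD21 as in LD21.

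VIT_02s0087g00930 (chromosome 2, 18588852 to 18590786) was the rarest NCED gene. It stood at 0.501, 0.932 and 0.745 FPKM in LD7, 0.353, 0.695 and 0.500 in SD7, 0.872, 0.669 and 0.274 in LD21, and 11.2, 8.59 and 6.88 in SD21. No library outside SD21 reached 1 FPKM. Its log2 fold change of 2.62 ± 0.20 (SE, limma adjusted p = 6.0e-07) understates the change of so rare a gene, and it was 3.75 with a pseudocount of 0.1. Because it entered the test through SD21 alone, it had to differ there. Without a filter on low values it was also called (limma adjusted p = 9.8e-07). That call is no independent support, since the members were chosen with earlier results of these data known.

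Among the CYP707A genes, VIT_02s0087g00710 (chromosome 2, 18248755 to 18251419) had the largest change in SD21 against LD21. Its FPKM was 0.811, 0.593 and 1.82 in LD7, 0.515, 0.390 and 0.405 in SD7, 0.573, 1.14 and 1.42 in LD21, and 38.1, 24.0 and 29.8 in SD21. The gene was among the rarest of the 8 outside SD21 and one of the main CYP707A transcripts within it. The log2 fold change of SD21 against LD21 was 3.95 ± 0.24 (SE, limma adjusted p = 1.3e-07), or 4.80 with a pseudocount of 0.1. At day 7 its SD7 libraries lay below those of LD7 without overlap, but at such low values the difference of -0.49 (95% interval -1.02 to 0.05) was not called (limma adjusted p = 0.39).

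VIT_03s0063g00380 (chromosome 3, 3944526 to 3947231) was the most abundant CYP707A gene over the 12 libraries. It stood at 7.75, 8.59 and 9.05 FPKM in LD7, 9.08, 6.68 and 14.2 in SD7, 4.43, 4.21 and 4.95 in LD21, and 42.0, 36.6 and 39.7 in SD21. Its SD7 libraries spread widely, with replicate 3 above all LD7 libraries, and its LD21 libraries were the lowest. The log2 fold change of SD21 against LD21 was 2.87 ± 0.20 (SE, limma adjusted p = 2.7e-07).

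VIT_18s0001g10500 (chromosome 18, 8847865 to 8850585) and VIT_06s0004g05050 (chromosome 6, 5973295 to 5977333) are the CYP707A genes not called in SD21 against LD21. VIT_18s0001g10500 stood at 9.73, 8.06 and 7.29 FPKM in LD7, 7.30, 8.78 and 9.86 in SD7, 12.9, 10.3 and 12.8 in LD21, and 11.9, 9.02 and 6.99 in SD21. VIT_06s0004g05050 stood at 3.00, 2.09 and 2.90 in LD7, 2.30, 2.82 and 4.05 in SD7, 0.361, 1.77 and 1.11 in LD21, and 1.50, 1.54 and 0.602 in SD21. For both, the SD21 and LD21 libraries overlapped. The log2 difference of SD21 against LD21 was -0.36 for VIT_18s0001g10500 (95% interval -0.76 to 0.05, limma adjusted p = 0.11) and 0.12 for VIT_06s0004g05050 (95% interval -0.50 to 0.73, limma adjusted p = 0.72). The value for VIT_18s0001g10500 depended on 1 library, since without SD21 replicate 1 it was -0.53 and called lower (limma adjusted p = 0.022). It also depended on the scaling, and was 0.0031 after quantile normalization.

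Of the 8 genes, 6 were called higher and 0 lower in SD21 against LD21, where 24.6% of all tested genes were called higher and 43.7% lower, 68.3% in all. Leaving out VIT_02s0087g00930, which had to differ, 5 of the other 7 were called higher, with a median log2 fold change of 2.71. The same 6 genes were those whose SD21 libraries all lay above their LD21 libraries, as in 25.3% of tested genes. Over the NCED genes the median was 2.67, or 2.71 without VIT_02s0087g00930, and over the CYP707A genes it was 1.49. Both NCED values include VIT_02s0087g00910, whose class is uncertain. The median of all 8 was 2.67, against -0.30 for the whole table. Measured from the median of the whole table, the 6 rises ran from 1.35 to 5.29. All 6 stayed called under every alternative in which the gene was tested. An exact permutation test of 3 against 3 libraries, two-sided, could reach no p under 0.10.

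**Figure D2:**
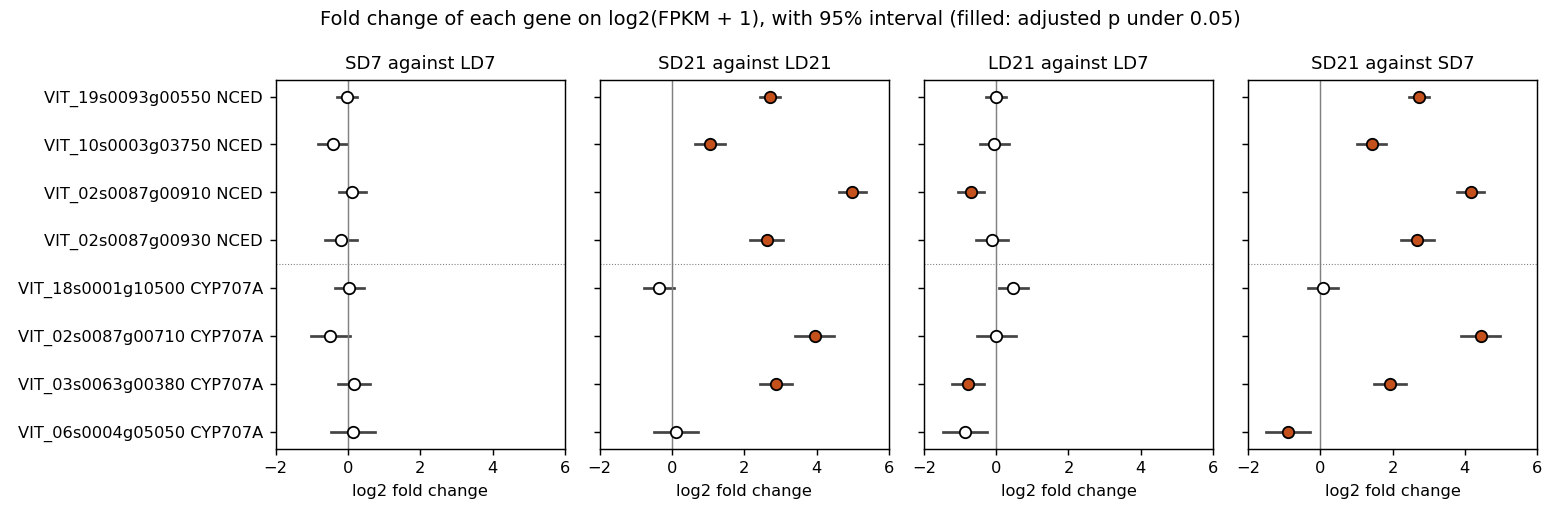
Log2 fold change on log2(FPKM + 1) (horizontal axes) of the 8 genes (rows) in 4 comparisons, with lines for the 95% interval and filled points for limma adjusted p under 0.05. In SD7 against LD7 all 8 points are open, and in SD21 against LD21 the 6 filled points lie between 1.05 and 4.99.

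At day 7 no difference among these genes passed the test. In SD7 against LD7 with limma, 1 of the 8 had an unadjusted p under 0.05, as had 3258 of the 21848 tested genes. Of the 8, 0 were called, where 0.833% of all tested genes were called, 0.357% higher and 0.476% lower. That share itself was unsteady, since the 182 genes called became 0 without LD7 replicate 2 and 1 without LD7 replicate 1, and the split of 78 higher and 104 lower became 101 and 86 with quantile normalization. The log2 differences ran from -0.49 to 0.16, and their 95% intervals included 0 except for that of VIT_10s0003g03750. The interval was narrowest for VIT_19s0093g00550, from -0.31 to 0.24, and widest for VIT_06s0004g05050, from -0.48 to 0.75. Libraries of SD7 and LD7 did not overlap for 2 genes, VIT_10s0003g03750 and VIT_02s0087g00710, both lower in SD7, and 13.7% of tested genes were lower without overlap.

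The change of the photoperiod effect from day 7 to day 21 was tested as an interaction. For the same 6 genes the effect was larger at day 21. Of all tested genes 55.1% were called, 19.6% in that direction and 35.5% in the other, and 0 of the 8 were called in the other. That split of 4292 higher and 7753 lower became 5610 and 5670 with quantile normalization and 5730 and 5845 with median-ratio scaling, and the 6 genes were called higher with both. One of the 6, VIT_02s0087g00930, entered the test only through SD21. The log2 differences of the effects were 4.86 ± 0.23 for VIT_02s0087g00910 and 2.75 ± 0.18 for VIT_19s0093g00550 (SE, limma adjusted p = 8.0e-07 and 1.8e-06). They were 4.44 ± 0.35 for VIT_02s0087g00710 and 2.71 ± 0.28 for VIT_03s0063g00380 (SE, limma adjusted p = 3.6e-06 and 1.7e-05). VIT_18s0001g10500, with -0.40 (95% interval -0.97 to 0.17), and VIT_06s0004g05050, with -0.02 (95% interval -0.88 to 0.85), were not called (limma adjusted p = 0.21 and 0.98).

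With time under short photoperiod, the NCED genes rose by 1.42 to 4.16 on the log2 scale between SD7 and SD21, all 4 called. One of them, VIT_02s0087g00930, entered the test only through SD21 and so had to differ. VIT_02s0087g00710 rose by 4.44 ± 0.24 (SE, limma adjusted p = 1.9e-07) and VIT_03s0063g00380 by 1.93 ± 0.20 (limma adjusted p = 8.6e-06). Of the 8 genes, 6 were called higher and 1 lower, where 61.1% of all tested genes were called, 23.4% higher and 37.7% lower. Leaving out VIT_02s0087g00930, 5 of the other 7 were called higher and 1 lower. The lower one was VIT_06s0004g05050, with -0.88 ± 0.28 (SE, limma adjusted p = 0.017). Its call was lost without SD7 replicate 3 (limma adjusted p = 0.067), without SD21 replicate 3 (0.074) and after quantile normalization (0.090). VIT_18s0001g10500 had 0.07 (95% interval -0.33 to 0.48, limma adjusted p = 0.75). This comparison shares the SD21 libraries with that of SD21 against LD21.

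With time under long photoperiod, the changes were smaller and none of the 8 was called higher in LD21 against LD7, where 18.1% of all tested genes were called, 10.5% higher and 7.63% lower. The genes called lower were 2, the NCED gene VIT_02s0087g00910 with -0.70 ± 0.17 and the CYP707A gene VIT_03s0063g00380 with -0.78 ± 0.20 (SE, limma adjusted p = 0.017 and 0.024). The first therefore stood at 0.586 and the second at 0.535 of its LD7 mean FPKM. VIT_06s0004g05050 had -0.87 ± 0.28 and missed the threshold (SE, limma adjusted p = 0.052), although its LD21 libraries were all below those of LD7. VIT_18s0001g10500 was the gene whose LD21 libraries all lay above LD7, with 0.48 ± 0.18 (SE, limma adjusted p = 0.094). Lower without overlap were 3 of the 8, against 14.8% of tested genes, and higher without overlap 1, against 28.2%.

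These long-day calls were close to the threshold and were lost without any of 4 libraries each, while the log2 fold changes stayed near -0.70 and -0.78. That of VIT_02s0087g00910 was lost without LD7 replicate 1 (limma adjusted p = 0.053), LD7 replicate 3 (0.068), LD21 replicate 1 (0.053) or LD21 replicate 2 (0.070), with log2 fold changes from -0.66 to -0.62. That of VIT_03s0063g00380 was lost without LD7 replicate 2 (limma adjusted p = 0.073), LD7 replicate 3 (0.084), LD21 replicate 1 (0.057) or LD21 replicate 2 (0.086), with log2 fold changes from -0.76 to -0.73. VIT_06s0004g05050 was in turn called lower without LD21 replicate 2 (0.049), without SD21 replicate 3 (0.044), after quantile normalization (0.049) and with a stricter filter (0.049). Over all genes the scaling also changed the split of this comparison, from 2296 higher and 1667 lower to 1669 and 1944 with quantile normalization and to 1185 and 1980 with median-ratio scaling.

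Summed over its 4 genes, the NCED class stood at 50.8 ± 3.03 FPKM in LD7, 46.8 ± 1.19 in SD7, 45.2 ± 1.09 in LD21 and 443 ± 59.3 in SD21 (SD, n = 3). The CYP707A class summed to 20.6 ± 1.07 FPKM in LD7, 22.1 ± 5.55 in SD7, 18.6 ± 1.45 in LD21 and 80.6 ± 11.5 in SD21. The mean sum in SD21 was thus 9.81 times that in LD21 for NCED and 4.32 times for CYP707A. The spread of the SD7 CYP707A sum came from replicate 3, with 28.5 FPKM against 19.2 and 18.7 in the other two. These sums are descriptions without a test.

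**Figure D3:**
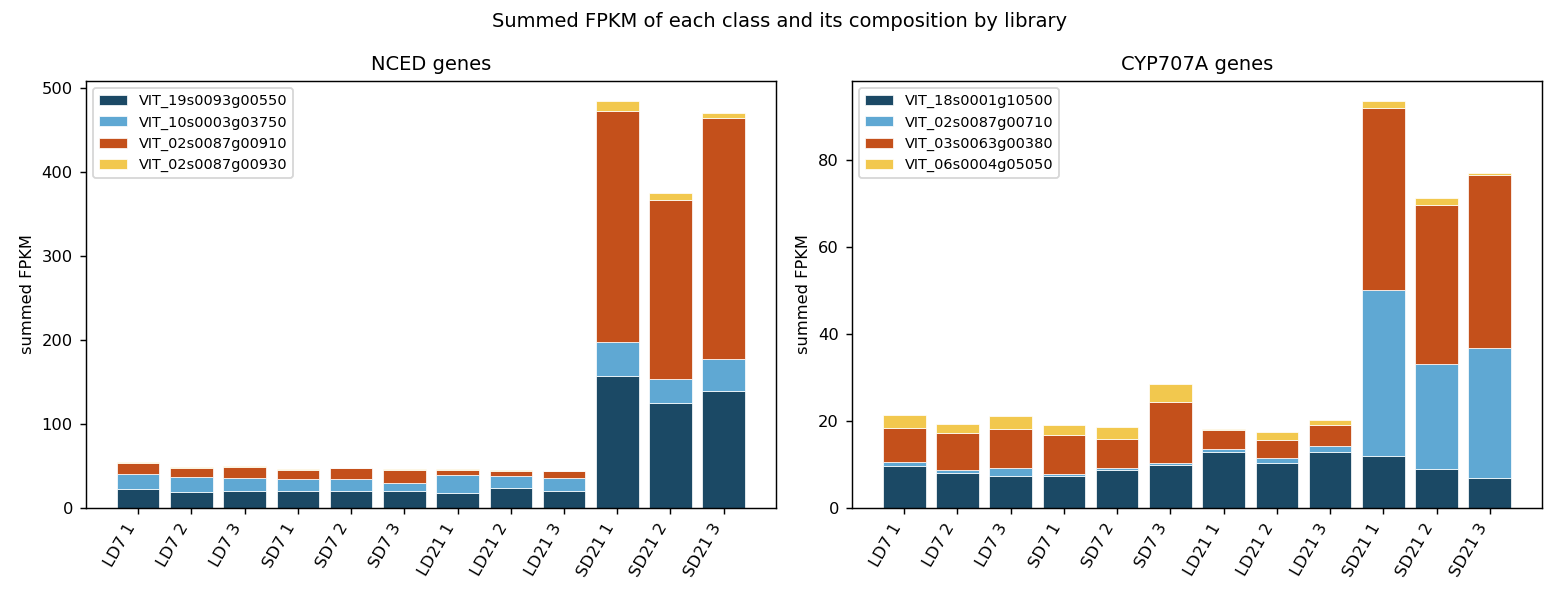
Summed FPKM (vertical axes, from 0) of the NCED genes and of the CYP707A genes in each of the 12 libraries, with bar segments for single genes. The SD21 bars reach 375 to 484 FPKM for NCED and 71.2 to 93.5 for CYP707A, and VIT_02s0087g00910 and VIT_03s0063g00380 are their largest segments.

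The composition of both classes differed in SD21. VIT_02s0087g00910 made up 58.2% ± 2.35 of the NCED sum in SD21 and 16.0% ± 3.43 in LD21 (SD, n = 3). The share of VIT_10s0003g03750 was 7.97% ± 0.39 in SD21 and 37.0% ± 8.26 in LD21, although its own FPKM had risen. Within CYP707A, VIT_18s0001g10500 held 64.3% ± 5.84 of the sum in LD21 and 11.5% ± 2.09 in SD21, and VIT_02s0087g00710 went from 5.58% ± 2.12 to 37.7% ± 3.62. The largest CYP707A share in SD21 was that of VIT_03s0063g00380, at 49.3% ± 3.78 against 24.3% ± 0.17 in LD21. The gene that prevailed in SD21 was therefore not that of LD21. At day 7, however, VIT_03s0063g00380 already held 41.3% ± 4.28 in LD7 and 44.3% ± 7.49 in SD7. VIT_18s0001g10500 held 40.7% ± 5.63 and 39.9% ± 6.44 there, so LD21 also departed from day 7.

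The sum of NCED over that of CYP707A was 2.54, 2.50 and 2.37 in the LD7 libraries, 2.40, 2.58 and 1.62 in SD7, 2.54, 2.58 and 2.18 in LD21, and 5.18, 5.27 and 6.11 in SD21. Every SD21 library exceeded every other library. The separation from LD21 rested on the NCED genes of chromosome 2, while that from the day 7 libraries did not. A ratio with only VIT_19s0093g00550 and VIT_10s0003g03750 as NCED was also taken, a division chosen after the values were seen. It was 2.15, 2.16 and 1.73 in LD21 and 2.11, 2.15 and 2.30 in SD21, which overlap. The day 7 libraries all stood below SD21, at 1.90, 1.91 and 1.72 in LD7 and 1.78, 1.82 and 1.06 in SD7. That sum of 2 genes was 4.71 times as high in SD21 as in LD21, close to the 4.32 times of CYP707A, and the sum of the chromosome 2 genes was 34.3 times as high. The class of VIT_02s0087g00910 and VIT_02s0087g00930 is uncertain. The identifiers alone do not tell whether these genes encode abscisic acid NCED enzymes or dioxygenases of the CCD4 type. The 9.81-fold NCED sum and the separation of the ratio from LD21 both turn on them.

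**Figure D4:**
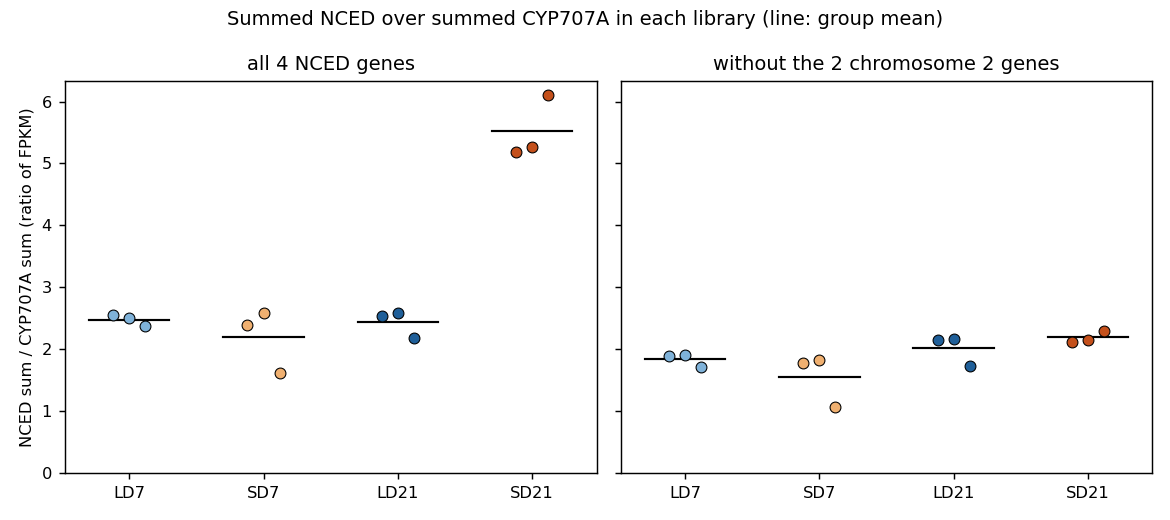
Ratio of summed NCED to summed CYP707A FPKM (vertical axis, from 0) in each library by group, with all 4 NCED genes on the left and without the 2 of chromosome 2 on the right; lines are group means. The SD21 points stand apart from LD21 on the left (mean 5.52 against 2.43) and overlap them on the right (2.19 against 2.02).

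The order of the 8 genes by mean FPKM also differed among the groups. In LD7 the order was VIT_19s0093g00550, VIT_10s0003g03750 and VIT_02s0087g00910, each above the next in all libraries, followed by VIT_03s0063g00380 and VIT_18s0001g10500, which overlapped. In SD7, VIT_19s0093g00550 was followed by VIT_02s0087g00910, VIT_10s0003g03750, VIT_03s0063g00380 and VIT_18s0001g10500, and among these 4 each overlapped its neighbour. In LD21, VIT_19s0093g00550 and VIT_10s0003g03750 overlapped at the top and VIT_18s0001g10500 came next, above VIT_02s0087g00910 and VIT_03s0063g00380. In SD21, VIT_02s0087g00910 and VIT_19s0093g00550 led without overlap, and VIT_03s0063g00380, VIT_10s0003g03750 and VIT_02s0087g00710 followed, each overlapping its neighbour. VIT_02s0087g00930, VIT_06s0004g05050 and, outside SD21, VIT_02s0087g00710 filled the lowest places.

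A feature that the list did not use is position. Of the 8 genes, 3 lie on one stretch of chromosome 2, but only VIT_02s0087g00910 and VIT_02s0087g00930 are near neighbours. The CYP707A gene VIT_02s0087g00710 and the NCED gene VIT_02s0087g00910 are 309.3 kb apart, and VIT_02s0087g00910 and VIT_02s0087g00930 are 26.3 kb apart. From the first to the last, the stretch holds 21 listed genes, of which 14 were tested. Of the 11 tested genes that are not on the list, 5 were called higher, 3 lower and 3 not called in SD21 against LD21, with a median log2 fold change of -0.11. Of all tested genes, 24.6% were called higher and 43.7% lower in that comparison. The stretch held changes in both directions, and whether position played a part was not tested.

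The gene between the neighbouring NCED genes, VIT_02s0087g00920 (18562591 to 18582606), begins at the last base of VIT_02s0087g00910. It stood at 18.8, 58.8 and 22.5 FPKM in LD21 and at 979, 426 and 550 in SD21, with a log2 fold change of 4.34 (limma adjusted p = 0.00015). Its SD7 libraries, at 14.5, 110 and 45.5, varied far more than the 11.5 to 15.5 of VIT_02s0087g00910. Reads across that base could belong to either gene, and their assignment is not given in the sources used here. On the other side of VIT_02s0087g00910, VIT_02s0087g00890 stood at 5.40 ± 0.51 FPKM in LD21 and 3.14 ± 2.72 in SD21 and was not called (limma adjusted p = 0.23), and VIT_02s0087g00940, beyond VIT_02s0087g00930, was listed at 0 in every library.

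**Figure D5:**
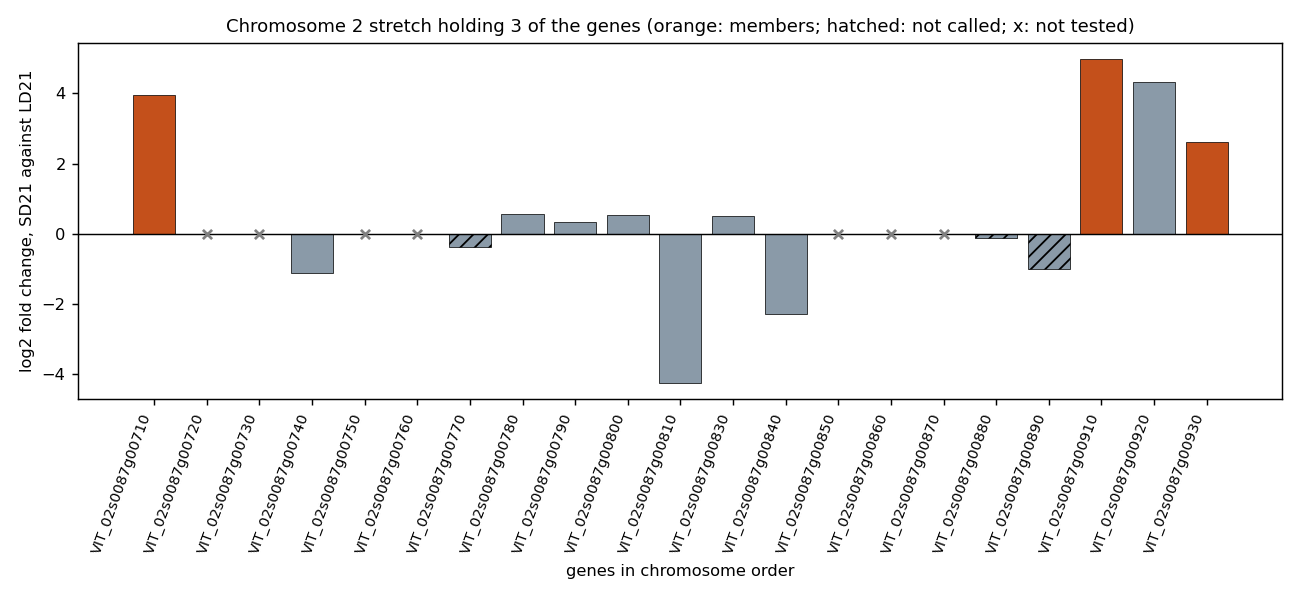
Log2 fold change in SD21 against LD21 (vertical axis) of the genes of the chromosome 2 stretch in chromosome order (horizontal axis), with orange bars for the 3 genes of the list, hatched bars for genes not called and crosses for genes not tested. The last 3 bars, at 4.99, 4.34 and 2.62, and the first, at 3.95, rise above the rest, and the lowest bar lies at -4.26.

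The genes most alike in pattern were sought for the most abundant member of each class, by Pearson r of log2(FPKM + 1) over the 12 libraries. For VIT_02s0087g00910 they were VIT_07s0005g03830 and VIT_02s0025g01260 (both r = 0.997, with 5.86 and 1.25 FPKM in LD21 and 22.0 and 37.5 in SD21). For VIT_03s0063g00380 they were VIT_17s0000g06190 and VIT_17s0000g07510 (both r = 0.990, with 7.90 and 99.2 FPKM in LD21 and 77.9 and 397 in SD21). Such likeness was common, since 945 and 438 of the 21840 other tested genes reached r = 0.95 with the respective member. The libraries share groups, and SD21 stands apart from the other 9, so these values mostly describe that one separation.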

How the data were processed

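RNA of 12 shoot tip libraries was sequenced as 43 bp reads, per the labels' protocols. The values deposited by the authors are FPKM per gene and library, per the file headers. The submitters' processing notes name TopHat2 2.0.13 with Bowtie2 2.2.4, Cufflinks 2.2.1, and FastQC 0.11.3 with cutadapt 1.8.1. Not given in the sources used here are their settings, the genome build, the annotation, the use of strand and the treatment of reads shared by similar genes. FPKM is relative, so a few very abundant genes lower all others.

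Libraries were joined by identifier and grouped by title. The file of SD21 replicate 3 names replicate 2 in its header but holds other values than replicate 2 (within groups, libraries shared at most 1 identical nonzero value). Of the 29970 identifiers, 0 were found in the RefSeq gene table used for names. Gene names, further pathway genes and tissue or cell type markers were therefore not used, and no sequence is printed.

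The test covered the 21848 genes that reached 1 FPKM in 3 or more libraries, on log2(FPKM + 1), with limma 3.58.1 in R 4.3.3 (group means over all 12 libraries, eBayes with trend and robust). P-values are two-sided and Benjamini-Hochberg adjusted over all tested genes and per comparison. The code was tested on simulated data. Plots were drawn with matplotlib 3.10.9 in Python 3.11.15. Rare genes (mean under 0.3 FPKM) gave relative depths. No counting interval can be had from FPKM. The named genes are the 8 members, the genes next to the neighbouring NCED genes, and the 2 genes most alike in pattern to the most abundant member of each class. The members, groups of members and alternatives were chosen with earlier results of these data known.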

Additional observations from a re-analysis of the deposited data

Results flagged for a closer look

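For 6 genes the photoperiod effect differed between the days by the direct test (limma, adjusted p under 0.05 over all tested genes), where 55.1% of all tested genes were called and 19.6% in the same direction. The log2 difference, day 21 less day 7, was 2.75 for VIT_19s0093g00550, 1.47 for VIT_10s0003g03750, 4.86 for VIT_02s0087g00910 and 2.80 for VIT_02s0087g00930 among the NCED genes, of which the last entered the test only through SD21 and so had to differ. It was 4.44 for VIT_02s0087g00710 and 2.71 for VIT_03s0063g00380 among the CYP707A genes. In each case the SD21 libraries lay above all other libraries. The difference of VIT_10s0003g03750 includes its lower day 7 value (-0.42), and that of VIT_02s0087g00710 its lower day 7 value (-0.49), neither called on its own.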

How the results depend on the processing

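The 6 genes called in SD21 against LD21, in SD21 against SD7 and in the difference between the days kept direction and call under every alternative in which they were tested, but VIT_02s0087g00930 was not tested without 1 of the SD21 libraries or with the filter of 6 libraries. Members called without 1 library ranged from 5 to 6 in SD21 against LD21 and in the difference, from 5 to 7 in SD21 against SD7, from 0 to 3 in LD21 against LD7, and stayed at 0 in SD7 against LD7 (limma). Same-numbered libraries deviated together in few cases (r from -0.13 to 0.20, 2 of 18 above 0.1). The labels do not say whether the numbers pair vines, and weak correlations of this kind cannot settle it. With the replicate number as a block, members called were 0 in SD7 against LD7, 6 in SD21 against LD21, 2 in LD21 against LD7, 7 in SD21 against SD7 and 6 for the difference, as without it. The count of all genes called in SD7 against LD7 was 182, and 116 with median-ratio scaling, 108 without the trend, 83 without the filter, 82 with only the groups compared, 74 with the block and 0 to 208 without 1 library, lowest without LD7 replicate 2 (0), LD7 replicate 1 (1), LD7 replicate 3 (10), SD7 replicate 2 (11) or SD7 replicate 1 (28) (3258 genes had an unadjusted p under 0.05). That in LD21 against LD7 was 3963, and 1358 to 4408 without 1 library, lowest without LD7 replicate 3 (1358), LD21 replicate 2 (1388) or LD7 replicate 2 (1606). Calls split 5113 higher and 8235 lower in SD21 against SD7, and 6741 and 6365 after quantile normalization or 6532 and 6821 after median-ratio scaling.

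Signs turned only for log2 values that were not called. After quantile normalization VIT_18s0001g10500 had 0.0031 in SD21 against LD21. After median-ratio scaling VIT_02s0087g00710 had -0.051 in LD21 against LD7. The difference between the days for VIT_06s0004g05050 was 0.30 after quantile normalization, 0.14 after median-ratio scaling and 0.10 with a pseudocount of 0.1. Without 1 library, values in SD7 against LD7 ran from -0.084 to 0.039 for VIT_19s0093g00550, -0.046 to 0.15 for VIT_18s0001g10500, -0.10 to 0.39 for VIT_03s0063g00380 and -0.036 to 0.27 for VIT_06s0004g05050. In LD21 against LD7 they ran from -0.11 to 0.086 for VIT_19s0093g00550, -0.23 to 0.056 for VIT_10s0003g03750, -0.24 to 0.042 for VIT_02s0087g00930 and -0.17 to 0.25 for VIT_02s0087g00710. For VIT_06s0004g05050 they ran from -0.16 to 0.35 in SD21 against LD21 and -0.29 to 0.22 in the difference, and for VIT_18s0001g10500 from -0.10 to 0.24 in SD21 against SD7. Median-ratio scaling lowered the LD21 sums to 40.2 FPKM for NCED and 16.6 for CYP707A. It raised the SD21 sums to 499 and 90.6 FPKM, so the folds between these sums depend on the scaling. The causes were not tested. Depth limits the genes under 1 FPKM outside SD21.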
